A study of Homo sapiens with 6 samples.

Results

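A set of 10 circadian clock genes was followed in human cells labelled A549, a lung cancer cell line, treated with an inhibitor of the histone demethylase LSD1. They are the period genes PER1, PER2 and PER3, the cryptochromes CRY1 and CRY2, the REV-ERB receptor genes NR1D1 and NR1D2, the transcription factor gene DBP, and BHLHE40 and BHLHE41. They were taken by symbol, and all 10 were found among the 58735 gene identifiers of the series and had enough counts to be among the 14773 genes tested. RNA sequencing was done on 3 libraries of untreated cells, called control here, and on 3 libraries of cells given the compound B35 at 2 µM, with 72 h of culture in each group. All cells carry the label A549, wild type, and grew in DMEM with serum. The labels name no solvent for the control cells, and nothing in them ties a library to its own culture. The p-values therefore measure only the spread between these libraries, which may be technical.

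The circadian clock is a feedback loop of transcription with a period of about a day. CLOCK or NPAS2 pairs with BMAL1, encoded by ARNTL, and binds E-box sequences to switch on the PER, CRY, NR1D, DBP and BHLHE genes, and the PER and CRY proteins then enter the nucleus and inhibit the pair. REV-ERB proteins repress ARNTL and other genes through elements that ROR receptors activate, while DBP and its relatives act on D-box sequences. BHLHE40 and BHLHE41 compete for E-boxes as repressors. Cultured cells that are not synchronized hold clocks at many phases, so a bulk sample gives an average over them. Whether the cells here were synchronized was not tested. All libraries come from 72 h alone, which cannot separate a shift in phase from a change in average level. LSD1 has been described as a partner of CLOCK and BMAL1 at E-boxes.

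Library totals ran from 17141478 to 18530670 counts. The label A549 was not borne out by every gene looked at. CDKN2A, which is known to be deleted in A549 and was looked up after the other markers were seen, had 2041 to 3370 counts in each of the 6 libraries. Of 8 epithelial and A549 markers, 4 reached 1 FPKM, the authors' read count scaled to gene length and library size, in any library. The keratins KRT7, KRT8 and KRT18 were abundant. KRT8 fell by 1.49-fold with B35 and the adhesion gene EPCAM rose by 2.14-fold (edgeR adjusted p = 0.00611 and 0.00248), and their part in the changes of the clock genes was not tested. The E-cadherin gene CDH1 stayed at or under 0.249 FPKM, and ALDH1A1 and AKR1B10, enzymes for which A549 is known, at or under 0.271 and 0.827 FPKM. The summed FPKM of the epithelial list was 615 to 635 in control and 483 to 567 in B35 libraries. Of 6 fibroblast, 5 endothelial and 5 leukocyte markers, 1, 1 and none reached 1 FPKM. The cells are therefore called by their label only.

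Promoter sequences show where known clock elements lie in these genes. RefSeq windows from 250 bases before to 50 bases after a transcription start (GRCh38.p14) were found for all 10 genes, 13 windows in all. Shown 5′ to 3′ are PER1, NR1D1 and CRY1, members whose RNA changed, and PER2 and NR1D2, whose RNA did not pass the test and of which the windows shown hold elements. NR1D2 has another window, at chr3:23945036-23945335 (plus strand), that holds none of the elements searched and is not shown. Capitals mark an E-box (CACGTG), a D-box (TTATGTAA or TTACGTAA), the core of a ROR and REV-ERB element (TAGGTCA or TGGGTCA) or a cAMP response element (TGACGTCA), searched on both strands.
PER1 promoter: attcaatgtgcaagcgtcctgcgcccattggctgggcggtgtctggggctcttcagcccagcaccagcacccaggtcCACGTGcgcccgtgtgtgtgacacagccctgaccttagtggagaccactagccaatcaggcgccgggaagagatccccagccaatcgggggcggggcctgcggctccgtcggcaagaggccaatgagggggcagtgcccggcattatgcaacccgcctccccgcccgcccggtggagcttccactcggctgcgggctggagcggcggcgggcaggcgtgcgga
PER2 promoter: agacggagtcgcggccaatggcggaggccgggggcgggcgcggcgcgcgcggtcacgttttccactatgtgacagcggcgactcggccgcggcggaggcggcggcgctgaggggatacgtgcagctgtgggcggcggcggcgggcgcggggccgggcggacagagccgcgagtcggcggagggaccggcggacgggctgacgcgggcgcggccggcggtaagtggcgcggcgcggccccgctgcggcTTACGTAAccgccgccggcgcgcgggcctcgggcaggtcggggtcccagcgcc
NR1D2 promoter: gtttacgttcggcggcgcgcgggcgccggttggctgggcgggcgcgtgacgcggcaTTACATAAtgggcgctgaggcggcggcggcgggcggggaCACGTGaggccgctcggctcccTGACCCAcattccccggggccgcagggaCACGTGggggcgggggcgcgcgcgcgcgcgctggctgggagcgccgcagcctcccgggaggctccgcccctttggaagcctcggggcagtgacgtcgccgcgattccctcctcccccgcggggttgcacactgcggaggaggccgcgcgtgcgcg
NR1D1 promoter: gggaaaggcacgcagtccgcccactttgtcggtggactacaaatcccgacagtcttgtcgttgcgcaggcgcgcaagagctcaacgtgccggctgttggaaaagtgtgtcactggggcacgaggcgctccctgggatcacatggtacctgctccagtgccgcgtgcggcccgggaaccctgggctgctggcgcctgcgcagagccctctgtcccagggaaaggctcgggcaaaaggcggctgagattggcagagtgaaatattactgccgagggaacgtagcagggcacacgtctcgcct
CRY1 promoter: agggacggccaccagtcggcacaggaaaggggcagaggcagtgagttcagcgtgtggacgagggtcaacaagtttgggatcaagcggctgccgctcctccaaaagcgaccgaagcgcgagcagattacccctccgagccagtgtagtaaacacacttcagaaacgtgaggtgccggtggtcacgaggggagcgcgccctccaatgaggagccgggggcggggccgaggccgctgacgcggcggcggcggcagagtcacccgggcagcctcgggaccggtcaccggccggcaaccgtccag

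The windows lie at chr17:8152355-8152654 (minus strand) for PER1, chr2:238288561-238288860 (minus) for PER2, chr3:23945871-23946170 (plus) for NR1D2, chr17:40100540-40100839 (minus) for NR1D1 and chr12:107093500-107093799 (minus) for CRY1. E-boxes were found in 4 of the 13 windows, those of PER1, BHLHE40 and BHLHE41 and 1 of NR1D2, beside 7.26% of all 35116 windows. In PER1 the E-box began at position -173 from the start, and in NR1D2 E-boxes began at -155 and -105. D-boxes were found in 3 of the 13 windows, of PER2, PER3 and NR1D2 (1.01% of all windows), and a ROR element core in 2, of CRY2 and NR1D2 (5.69%). The cAMP response element (1.85% of all windows) and the full palindrome of the glucocorticoid response element (0.00285%) matched none of the 13 windows. The hypoxia response core ACGTG, which every E-box contains, matched 9 of the 13 windows and 21.4% of all windows. The NR1D1 and CRY1 windows hold none of the elements marked in capitals. A match describes the letters in this window alone.

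With B35, 5 of the 10 clock genes rose and 1 fell, at an edgeR adjusted p under 0.05 over all genes tested. NR1D1, BHLHE41, PER1, DBP and CRY2 rose by 1.46- to 2.05-fold, and CRY1 fell. PER2, PER3, NR1D2 and BHLHE40 did not pass. Over all genes tested 15.4% changed, 8.82% higher (1303 genes) and 6.59% lower (973 genes). With trends on GC content and exon length removed, 1705 genes rose and 2562 fell, and the calls of the 10 clock genes were the same. The median log2 fold change of the 10 genes was 0.45, and that of all genes tested 0.0067. The calls of PER1, CRY1, NR1D1 and DBP held without any 1 library, while those of CRY2 and BHLHE41 did not, as given with each gene. Without control replicate 1, control replicate 2, control replicate 3 or B35 replicate 3, 3 of the genes rose.

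**Figure D1:**
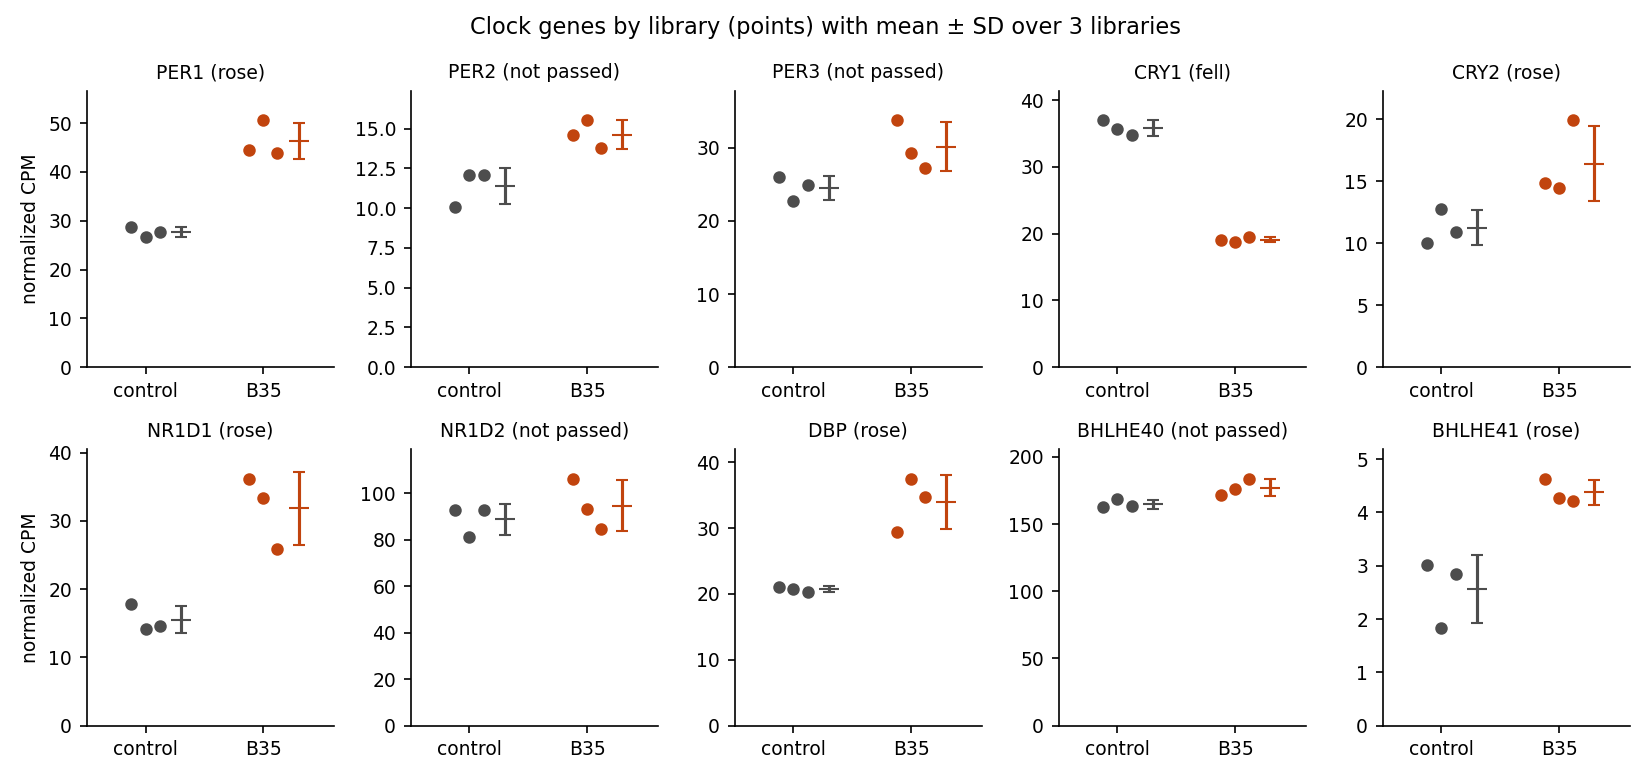
Normalized CPM (y axis from 0) of each clock gene in the 3 control and 3 B35 libraries (points in the order of replicate number), with the mean and SD beside them. The groups do not overlap in 9 of the 10 genes, the exception being NR1D2, and CRY1 alone sits lower in B35 libraries.

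The period proteins are the inhibitors that set the length of the cycle. PER1 (ENSG00000179094, chromosome 17, 8140472 to 8156506, minus strand, hg38) stood at 28.8, 26.6 and 27.6 CPM in control libraries and at 44.6, 50.6 and 44.0 CPM in B35 libraries. CPM here is the count scaled to a common library total. Every B35 library lay above every control library. Among the 10 genes 9 had groups that did not overlap, 8 higher and 1 lower with B35, against 36.3% of all genes tested, 18.8% higher and 17.5% lower. The mean went from 27.7 ± 1.07 to 46.4 ± 3.67 CPM (SD, n = 3 each), a log2 fold change of 0.75 ± 0.10 (SE, edgeR adjusted p = 0.00139).

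PER2, the partner of PER1 in the inhibitor complex (ENSG00000132326, chromosome 2, 238244038 to 238290102, minus strand), measured 10.1, 12.1 and 12.1 CPM in control and 14.6, 15.5 and 13.8 CPM in B35 libraries. The groups did not overlap, but its log2 fold change of 0.36 did not pass (95% interval 0.07 to 0.65, edgeR adjusted p = 0.0921). PER3 (ENSG00000049246, chromosome 1, 7784320 to 7845177, plus strand), which is less essential to the cycle, measured 26.0, 22.8 and 24.9 CPM in control and 33.8, 29.4 and 27.3 CPM in B35 libraries. Its groups came close to each other, and its log2 fold change of 0.30 did not pass (95% interval 0.04 to 0.55, edgeR adjusted p = 0.117). The intervals of PER2 and PER3 lie above 0 because they are not adjusted for the number of genes. PER3 shares 868 exon bases with UTS2 on the opposite strand, and UTS2 had at most 2 counts in any library.

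The cryptochromes are the stronger inhibitors of CLOCK and BMAL1, and here the pair moved in opposite directions. CRY1 (ENSG00000008405, chromosome 12, 106991364 to 107093829, minus strand) measured 37.0, 35.7 and 34.7 CPM in control and 19.05, 18.8 and 19.5 CPM in B35 libraries. The libraries of each group lay close together and the groups were far apart. The fall was 1.87-fold, with a log2 fold change of -0.91 ± 0.10 (SE, edgeR adjusted p = 0.000451), the smallest adjusted p of the 10 genes.

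CRY2 (ENSG00000121671, chromosome 11, 45847118 to 45883248, plus strand) measured 10.0, 12.8 and 10.9 CPM in control and 14.9, 14.5 and 19.9 CPM in B35 libraries. B35 replicate 3 was well above the other B35 libraries. The rise of 1.46-fold (log2 0.55 ± 0.16) passed narrowly (edgeR adjusted p = 0.0427). It did not pass without B35 replicate 3 (edgeR adjusted p = 0.132) or without control replicate 1, 2 or 3 (0.155, 0.0526 and 0.148). The log2 fold change was 0.39 without B35 replicate 3 and 0.47, 0.65 and 0.52 without those control libraries.

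REV-ERB alpha, encoded by NR1D1 (ENSG00000126368, chromosome 17, 40092787 to 40100725, minus strand), is the main repressor of ARNTL. Its RNA measured 17.8, 14.2 and 14.6 CPM in control and 36.2, 33.3 and 25.9 CPM in B35 libraries. B35 replicate 3 was lowest among the treated libraries and still above every control library. The mean went from 15.5 ± 1.98 to 31.8 ± 5.28 CPM (SD, n = 3 each), or 2.05-fold, the largest fold among the 10 genes (log2 1.03 ± 0.15, edgeR adjusted p = 0.00183). NR1D1 shares 263 exon bases, 9.49% of its exon length, with THRA on the opposite strand. The strand setting of the counting is not given, so reads from such shared stretches could belong to either gene. THRA itself did not pass (log2 0.22 ± 0.11, edgeR adjusted p = 0.216).

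NR1D2, which encodes the related REV-ERB beta (ENSG00000174738, chromosome 3, 23945260 to 23980618, plus strand), was the only clock gene whose groups overlapped. It measured 92.6, 81.2 and 92.6 CPM in control and 106, 93.3 and 84.5 CPM in B35 libraries. Its log2 fold change was 0.09, with a 95% interval from -0.15 to 0.33 (edgeR adjusted p = 0.61). A change as large as that of NR1D1 lies outside this interval.

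DBP, an activator at D-boxes and a direct readout of CLOCK and BMAL1 activity (ENSG00000105516, chromosome 19, 48630030 to 48637438, minus strand), measured 21.1, 20.8 and 20.3 CPM in control libraries. In B35 libraries it measured 29.4, 37.5 and 34.8 CPM. The control libraries were nearly level and B35 replicate 1 was the lowest of the treated ones. The rise was 1.64-fold (log2 0.71 ± 0.12, edgeR adjusted p = 0.00355). DBP shares 661 exon bases, 10.1% of its exon length, with SPHK2 on the opposite strand, which did not pass (edgeR adjusted p = 0.545).

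BHLHE40 and BHLHE41, also known as DEC1 and DEC2, are E-box repressors that also respond to low oxygen. BHLHE40 (ENSG00000134107, chromosome 3, 4979116 to 4985323, plus strand) measured 162, 168 and 163 CPM in control and 172, 176 and 184 CPM in B35 libraries. The groups did not overlap, yet the log2 fold change of 0.11 was small and did not pass (95% interval -0.08 to 0.29, edgeR adjusted p = 0.429). BHLHE41 (ENSG00000123095, chromosome 12, 26120026 to 26125127, minus strand) measured 3.01, 1.83 and 2.85 CPM in control and 4.63, 4.27 and 4.22 CPM in B35 libraries.

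BHLHE41 had the fewest reads of the 10 genes, 33 to 54 counts in control and 77 to 82 in B35 libraries. Its rise of 1.71-fold (log2 0.77 ± 0.23) passed narrowly (edgeR adjusted p = 0.0476). It did not pass when any 1 of the 6 libraries was left out (edgeR adjusted p from 0.0672 without B35 replicate 1 to 0.153 without control replicate 2). The log2 fold change was then 0.57 without control replicate 2 and 0.73 to 0.90 without any other library. BHLHE41 shares 162 exon bases with SSPN on the opposite strand, which had 1 to 3 counts in each library.

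Levels per length changed the order of the genes, as the plot of FPKM shows. In control cells BHLHE40 was highest at 42.7 ± 0.781 FPKM (SD, n = 3), followed by NR1D2 at 15.2 ± 1.15, CRY1 at 7.04 ± 0.213, NR1D1 at 5.57 ± 0.707 and PER1 at 3.93 ± 0.153 FPKM. DBP at 3.16 ± 0.0585 and PER3 at 3.02 ± 0.206 FPKM came next and did not differ beyond their spread. CRY2 at 1.80 ± 0.225 and PER2 at 1.65 ± 0.167 FPKM also overlapped, and BHLHE41 was lowest at 0.647 ± 0.163 FPKM. The other neighbours in this order did not overlap.

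With B35 the top pair and the bottom 3 kept their places, BHLHE40 at 45.5 ± 1.41, NR1D2 at 16.0 ± 1.89, CRY2 at 2.61 ± 0.465, PER2 at 2.10 ± 0.143 and BHLHE41 at 1.09 ± 0.0576 FPKM. CRY1 went from rank 3 to rank 6 at 3.72 ± 0.0472 FPKM. NR1D1 at 11.3 ± 1.92, PER1 at 6.53 ± 0.562 and DBP at 5.11 ± 0.635 FPKM each stood above it. CRY1 and PER3, at 3.67 ± 0.413 FPKM, overlapped, and they changed places without B35 replicate 3. No other neighbours overlapped with B35.

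**Figure D2:**
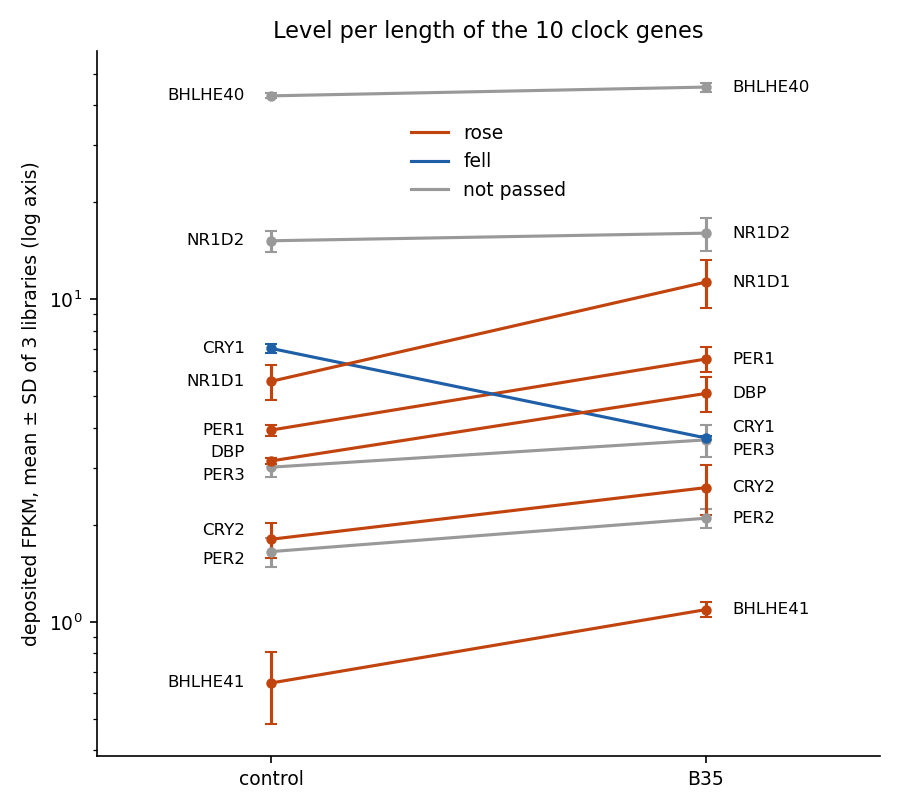
Deposited FPKM (log axis) of the 10 clock genes in control and B35 cells, mean ± SD of 3 libraries, with colours for genes that rose, fell or did not pass the test. The line of CRY1 runs down from 7.04 to 3.72 FPKM and crosses those of NR1D1, PER1 and DBP.

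Ratios within a library compare related genes without regard to library scaling. The log2 ratio of CRY2 to CRY1 was -1.88, -1.48 and -1.67 in control libraries and -0.36, -0.37 and 0.03 in B35 libraries. CRY1 counts exceeded CRY2 counts in every control library, while in B35 replicate 3 they were nearly equal. Per length CRY1 was still above CRY2 in that library, at 3.77 against 3.14 FPKM. The mean ratio differed by 1.44 between the groups. The log2 ratio of NR1D2 to NR1D1 was 2.38, 2.52 and 2.67 in control and 1.55, 1.49 and 1.70 in B35 libraries, a mean difference of -0.94.

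For PER2 to PER1 the mean log2 ratio differed by -0.38, and for PER3 to PER1 by -0.45. For BHLHE41 to BHLHE40 it differed by 0.69, with control replicate 2 the farthest out at -6.50. Without that library the difference was 0.45. ARNTL, the target of REV-ERB repression, stood against NR1D1 at log2 ratios of 0.13, 0.49 and 0.60 in control and -0.97, -0.87 and -0.57 in B35 libraries. ARNTL counts thus exceeded NR1D1 counts in every control library and fell short of them in every B35 library. Counts also depend on gene length, with 6726 exon bases in ARNTL and 2772 in NR1D1. Per length NR1D1 stood above ARNTL in every library, at mean FPKM of 5.57 against 3.04 in control and 11.3 against 2.65 with B35. The groups did not overlap in any of the 6 ratios. Each gave p = 0.1 in an exact two-sided permutation test over libraries (0.1 after Benjamini-Hochberg adjustment over the 6 pairs), the smallest value that 3 against 3 libraries can give.

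**Figure D3:**
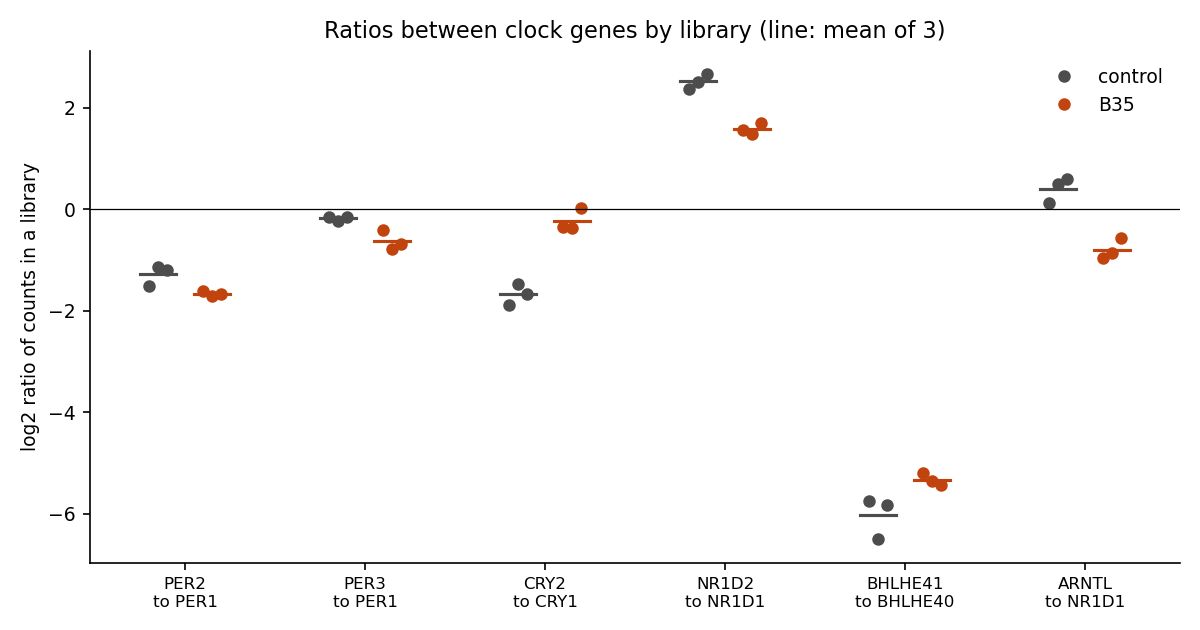
Log2 ratio of the counts of 2 clock genes in each library (points) with the mean of 3 libraries (line), for 5 pairs of related genes and for ARNTL to NR1D1. The CRY2 to CRY1 ratio is higher in B35 libraries by 1.44 and the ARNTL to NR1D1 ratio lower, at -0.80 against 0.41 on average.

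Other genes of the clock moved in part. Of the activators CLOCK, NPAS2, ARNTL and ARNTL2, 1 rose and none fell, against 8.82% and 6.59% of all genes tested. With 4 genes, 1 called cannot be told apart from those shares. NPAS2, which can stand in for CLOCK, went from 70.9 ± 6.58 to 95.1 ± 10.5 CPM (SD, n = 3 each), with a log2 fold change of 0.42 ± 0.11 (edgeR adjusted p = 0.0277). It did not pass without control replicate 1, 2 or 3 or B35 replicate 2 (edgeR adjusted p = 0.0666, 0.119, 0.0878 and 0.0543). CLOCK, with 34.6 ± 6.60 CPM in control and 33.6 ± 6.65 CPM in B35 cells, and ARNTL, with 20.5 ± 1.42 and 18.1 ± 0.516 CPM, did not pass (edgeR adjusted p = 0.898 and 0.311). ARNTL2, a relative of ARNTL, was 109 ± 9.79 and 127 ± 12.6 CPM and did not pass (edgeR adjusted p = 0.194). With trends on GC content and exon length removed it rose too (log2 0.22, edgeR adjusted p = 0.0317), so that 2 of the 4 activators rose. In that fit 1705 of the 14773 genes tested rose.

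Genes that act beside the REV-ERB proteins and DBP were also measured. RORA, a receptor gene whose product activates at REV-ERB elements, rose from 2.61 ± 0.232 to 5.46 ± 1.22 CPM (edgeR adjusted p = 0.0109), and its call was lost without control replicate 3 (0.056). RORA had few reads, 40 to 51 counts in control and 73 to 116 in B35 libraries, or 0.152 and 0.316 FPKM on average. TEF, a D-box activator related to DBP, rose by 1.94-fold from 8.89 ± 1.25 to 17.2 ± 1.13 CPM (edgeR adjusted p = 0.00208). NFIL3, the repressor at D-boxes, was 35.1 ± 6.45 CPM in control and 29.4 ± 2.83 CPM in B35 cells and did not pass (edgeR adjusted p = 0.247). RORB and HLF had at most 8 and 9 counts in any library and were not tested.

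**Figure D4:**
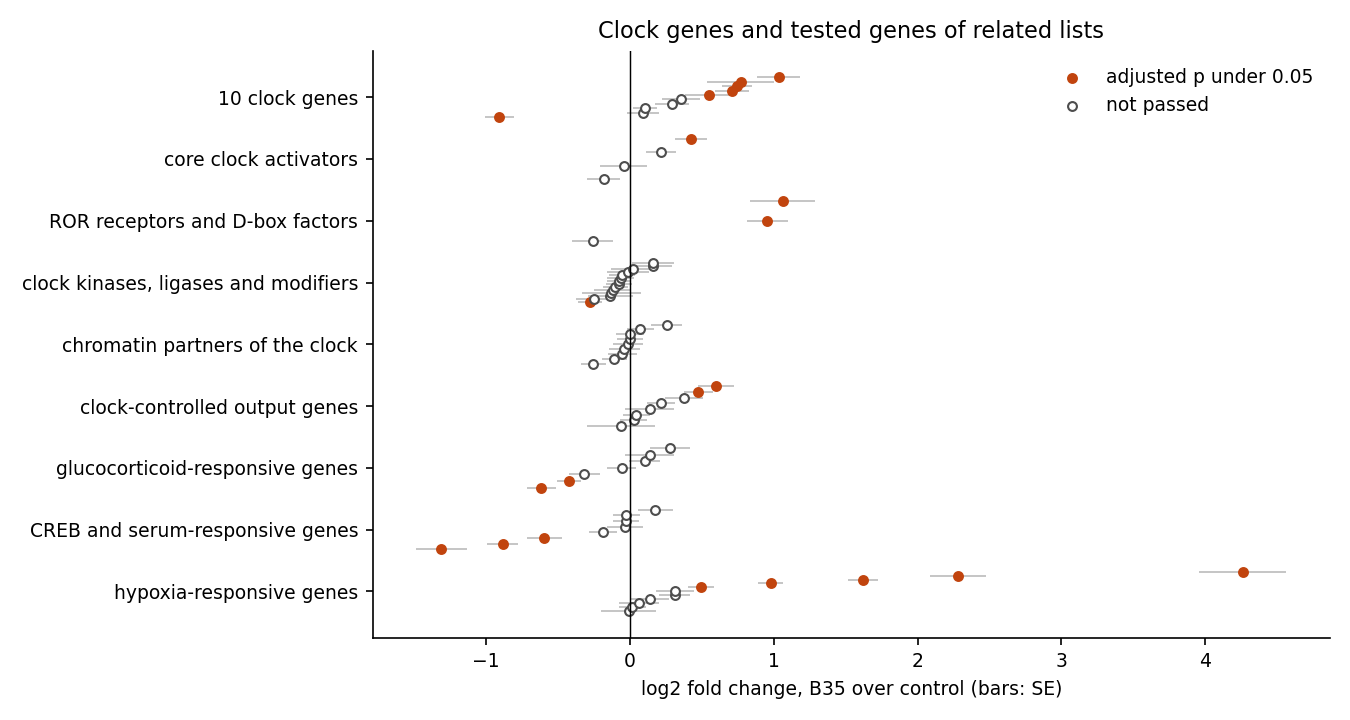
Log2 fold change (B35 over control, bars are SE) of the 10 clock genes and of tested genes from 8 related lists, without list genes that are not reported here, filled where the edgeR adjusted p was under 0.05. Filled points lie to the right among the clock genes except CRY1. Of 14 kinases, ligases and modifiers 1 is filled, beside 15.4% called over all genes tested.

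The enzymes that mark clock proteins for turnover showed little change in RNA. Of 14 tested kinases, ligases and modifiers none rose and 1 fell, with a median log2 fold change of -0.07. The shares over all genes tested were 8.82% higher and 6.59% lower. TIMELESS, a protein of the replication fork that also binds clock proteins, fell by 1.21-fold (edgeR adjusted p = 0.0478). It lost its call in 8 of 14 alternatives, among them those without any 1 control library (edgeR adjusted p from 0.115 to 0.187). None of 9 chromatin partners of the clock passed in edgeR, DESeq2 or limma-voom, while edgeR called 15.4% of all genes tested. With 9 genes, none called cannot be told apart from that share. Among them 2, KDM5A and WDR5, had an unadjusted edgeR p under 0.05. KDM1A, which encodes LSD1, measured 198 ± 2.56 and 184 ± 8.97 CPM (SD, n = 3 each, edgeR adjusted p = 0.432), and a transcript level is no measure of enzyme activity. WDR5, a subunit of histone methyltransferases, measured 115 ± 1.36 and 96.4 ± 4.98 CPM (edgeR adjusted p = 0.0735). With trends on GC content and exon length removed WDR5 passed, at a log2 fold change of -0.355 (edgeR adjusted p = 0.00331).

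PPARA, a clock-controlled output gene and a nuclear receptor of fatty acid metabolism, rose by 1.52-fold (edgeR adjusted p = 0.00899). CDKN1A, another output gene and an inhibitor of the cell cycle, rose by 1.39-fold (edgeR adjusted p = 0.0109), and did not pass without control replicate 1 or 3 (0.0548 and 0.0553). The output genes WEE1, NAMPT, USP2, KLF9, KLF10 and KLF11 did not pass (edgeR adjusted p = 0.145, 0.792, 0.896, 0.63, 0.0745 and 0.89). KLF10 did pass with no filter, without B35 replicate 3, with the replicate number as a term and with GC and length trends removed.

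PER1 and the BHLHE genes also respond to hormones, serum and low oxygen. Of 7 tested genes of the glucocorticoid response, the receptor gene NR3C1 included, none rose and 2 fell. Over all genes tested 8.82% rose and 6.59% fell. The 2 were the kinase gene SGK1 by 1.53-fold (edgeR adjusted p = 0.0032) and the phosphatase gene DUSP1 by 1.34-fold (edgeR adjusted p = 0.00742). DUSP1 did not pass without control replicate 3 (0.0522). PER1 also responds to CREB and serum. Of 8 genes of that response, the regulators CREB1 and CRTC2 included, none rose and 3 fell, against the same shares over all genes. The 3 were FOSB by 2.48-fold, FOS by 1.84-fold and NR4A1 by 1.51-fold (edgeR adjusted p = 0.00117, 0.000776 and 0.00893).

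Of 11 genes of the hypoxia response, the regulators HIF1A and EPAS1 included, 5 rose and none fell. Over all genes tested 8.82% rose and 6.59% fell. The 5 included the carbonic anhydrase CA9 from 1.18 ± 0.459 to 22.9 ± 6.88 CPM (edgeR adjusted p = 4.28e-05). Also among them were the prolyl hydroxylase EGLN3 by 4.86-fold, the peptide hormone ADM by 3.07-fold and the stress gene NDRG1 by 1.97-fold (edgeR adjusted p = 9.28e-05, 1.85e-05 and 0.000113). HIF1A, EPAS1, VEGFA, PDK1, ANKRD37 and SLC2A1 did not pass (edgeR adjusted p = 0.804, 0.925, 0.536, 0.133, 0.985 and 0.0715). SLC2A1 did pass without control replicate 2, without B35 replicate 1 and with the replicate number as a term. PDK1 did pass with GC and length trends removed. CA9 shares 643 exon bases, 38.5% of its exon length, with ARHGEF39 on the opposite strand. The part of these pathways in the changes of PER1 and BHLHE41 was not tested. A bulk library cannot tell a change in RNA per cell from a change in the share of cells that express a gene.

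The genes whose pattern over the 6 libraries was most like that of a clock gene were found by Pearson correlation of log2 CPM. For CRY1 they were H2AFY (r = 0.999), KLB (0.997) and ACAT2 (0.997). For NR1D1 they were UBXN7, SORBS2 and AMZ2 (r = 0.999, 0.999 and 0.998), for PER1 ZNF25, NBPF15 and BTG1 (0.997 each), and for DBP MYEOV, STARD8 and SH3PXD2B (0.996, 0.996 and 0.995). For CRY2 they were EPHB2, SGSH and PGGHG (r = 0.998, 0.995 and 0.995), and for BHLHE41 TMSB4X, HERC6 and EVA1A (0.995, 0.994 and 0.993). These points share 6 libraries in 2 groups, and 97 to 370 genes reached r = 0.95 with each member.

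**Figure D5:**
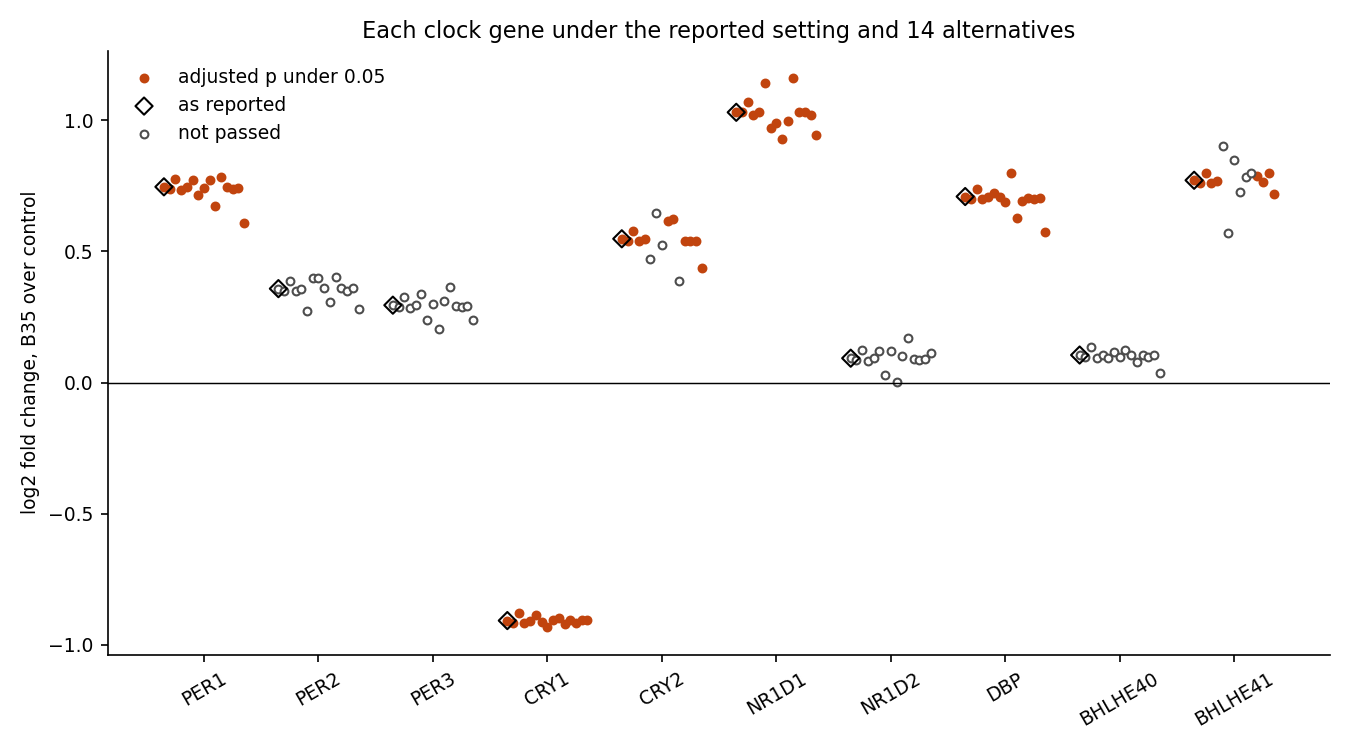
Log2 fold change of each clock gene as reported (diamond) and under 14 alternatives (points in a fixed order), filled where the adjusted p was under 0.05. PER1, CRY1, NR1D1 and DBP are filled in all 14, CRY2 in 10 and BHLHE41 in 8, and no point changes side of 0.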

How the data were processed

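Cells were lysed in TRIzol and libraries made with a NEBNext Ultra kit, per the labels' protocols. The submitters' processing notes name HISAT2 2.0.5, featureCounts 1.5.0-p3 and hg38. The sources used here do not give the strand setting. The deposited files hold whole-number counts and FPKM for each gene. The deposited FPKM values served only for levels and their order, without a test. Symbols, coordinates and shared exon bases came from GENCODE 29, in which all 58735 identifiers were found.

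The counts were tested with edgeR 4.0.16 in R 4.3.3 by a two-sided quasi-likelihood test with TMM scaling. Genes had to pass filterByExpr at a count of 10 and a total of 15, and p-values were adjusted by the Benjamini-Hochberg method over the 14773 genes left. The SE is the log2 fold change over the square root of F. Ratios had 0.5 added to each count and correlations 0.5 added to each CPM. The 10 genes and all lists were chosen with earlier results of these data known. Named were the 10 genes, from each list up to 4 called genes by adjusted p, or else its 2 with the highest mean FPKM, and for each called clock gene the 3 tested genes with a standard symbol that correlated best with it. Some list genes that the rule names are not reported here. CLOCK, ARNTL, ARNTL2, NFIL3, KDM5A, CDKN2A, the neighbours and the overlapping genes were named after their values were seen. So were NR3C1, CREB1, CRTC2 and the output and hypoxia list genes given as not passing. Pairs of replicates differed beyond counting noise (chi-square over its degrees of freedom 4.46 to 32.3). Control pairs gave 4.46 to 12.5. B35 replicate 1 gave 26.3 and 32.3 against the other B35 libraries, which gave 10.2 between them. Without B35 replicate 1, 3342 genes were called, against 2276 as reported.

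The alternatives tried were 2 other scalings (relative log expression, upper quartile), no filter, a filter at a mean CPM of 1, leaving out each library, the replicate number as a term, DESeq2 1.42.0 and limma-voom (limma 3.58.1). For the ratios a prior count of 2 was tried, and for the order of levels CPM per kilobase. Offsets for transcript GC content and exon length were chosen later, once the data had been seen. Summaries and plots were made in Python 3.11.15 with pandas 2.3.3, scipy 1.17.1 and matplotlib 3.10.9.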

Additional observations from a re-analysis of the deposited data

How the results depend on the processing

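The 10 clock genes kept their direction in all 14 alternatives, and PER1, CRY1, NR1D1 and DBP kept their calls. With relative log expression or upper-quartile scaling, other filters, DESeq2, limma-voom or the GC and length trends removed, the same 6 clock genes were called. With 1 library left out, 3 to 4 clock genes rose. Over all genes, 881 to 3342 were called with 1 library left out, 587 to 1822 higher and 294 to 1520 lower. With the GC and length trends removed 4267 genes changed, 1705 higher and 2562 lower, against 1303 higher and 973 lower as reported. The cause was not tested. In the same fit 24 list genes were called against 18, ARNTL2 and WDR5 among those added. CLOCK had a log2 fold change of -0.217 to 0.118 with 1 library left out, and it was above 0 when control replicate 1 (0.118), the second B35 library (0.0233) or the third B35 library (0.0523) was dropped, against -0.04 as reported. Of the list genes called, 13 to 18 of 18 were shared when 1 library was left out. In the order of levels with B35, 8 to 10 genes kept their rank with 1 B35 library left out.

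Same-numbered libraries deviated together with correlations of 0.163, 0.0162 and -0.063, and differently numbered ones with -0.222 to 0.249. Deviations from means of 3 libraries cannot decide whether libraries of the same number share a batch. With the replicate block, 6 clock genes were called, the same ones, and 2855 genes in all. Depth limits BHLHE41 most, at 33 to 82 counts per library.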

Other observations

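The genes next to the clock genes were looked at after the values above were seen. Of the 20 nearest tested protein-coding genes, 1 on either side of each clock gene, 1 rose, 1 fell and 18 did not pass in edgeR, while 15.4% of all genes tested were called. The count of neighbours called is thus no larger than that share would give. The gene that rose was CA11, a carbonic anhydrase relative without catalytic activity, at higher coordinates than DBP on chromosome 19 (48637942 to 48646312) and on the same strand. CA11 measured 10.3, 10.6 and 12.8 CPM in control and 16.6, 19.3 and 19.1 CPM in B35 libraries, a log2 fold change of 0.71 ± 0.14 (edgeR adjusted p = 0.00665) beside 0.71 ± 0.12 for DBP. No exon of DBP overlaps CA11 in GENCODE 29. The gene that fell was ITPR1, a calcium release channel of the endoplasmic reticulum, at lower coordinates than BHLHE40 on chromosome 3. It went from 110 ± 10.9 to 64.1 ± 1.63 CPM, or 1.71-fold lower (edgeR adjusted p = 0.000958). HES7, next to PER1, measured a log2 fold change of 0.70 ± 0.24 and did not pass (edgeR adjusted p = 0.0718), and VAMP2 on its other side did not pass either (0.119). The neighbours of CRY1, MTERF2 and BTBD11, did not pass (edgeR adjusted p = 0.773 and 0.284).

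The 10 clock genes had a median level of 27.3 CPM beside 24.9 CPM over all genes tested, a median exon length of 6010 bases beside 4618, and a median GC content of 53.3% beside 49.5%.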
